A study of Mus musculus with 16 samples.

Results

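The regions described here are the peaks of RNA polymerase II (Pol II) called by ChIP-seq in wild-type mouse embryonic stem cells (mESCs) and in wild-type mouse embryonic fibroblasts (MEFs). Every peak on the 19 autosomes was taken, which gave 16925 of 17074 peaks in mESCs and 44890 of 45870 peaks in MEFs. These 61815 regions were set against 20807 autosomal protein-coding genes. A promoter reached 1000 bp up- and downstream of the transcription start site (TSS) in the gene record, and a peak was placed by its summit at a promoter, otherwise in a gene body, otherwise between genes.

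The study compared cells with and without ATXN7L3, a subunit of the deubiquitylation modules that remove ubiquitin from histone H2B. Both libraries used here are Atxn7l3+/+ from the DBA/2 x C57BL/6 background, with no specific treatment, and differ in cell type, with 1 library in each. The mESCs were grown on feeder cells for 2 passages and then without them, in 15% foetal calf serum with leukaemia inhibitory factor, 1 uM PD0325901 and 3 uM CH99021, while the MEFs came from embryos at E10.5 and were grown in 10% serum. Chromatin was precipitated from both with the same antibody against the C-terminal domain of RPB1, the largest Pol II subunit. The study describes it as recognising the non-modified domain. With a single library per cell type no difference has a replicate check, and no test was possible.

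Pol II transcribes all protein-coding genes and most microRNA (miRNA) genes. In mammalian cells it accumulates shortly after the TSS, where it pauses before elongation, and again past the cleavage site, where it slows before it terminates. A peak at a promoter marks Pol II bound there, whether or not it has begun to transcribe, and peaks along a whole gene are typical of intense transcription. The strength of a peak is given as its fold, the deposited ratio of the pileup at the summit to the local background of the same library. Because each fold refers to its own library, cell types were compared by presence, rank or percentile. Where folds of both libraries are given side by side, they are each library's own value and their difference was not read as a difference in level.

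The miRNA loci are shown first, since the strongest peak inside a gene body that was found in mESCs alone lay on one of them. It covered chr7:3217441-3224933 (mm10, 7.49 kb) with a fold of 38.5, inside the Nlrp12 gene record, and held the 9 gene records of the miR-290 to miR-295 cluster, a cluster known for its high activity in mouse stem cells. The nearest MEF peak was 56.8 kb away from Mir290a. The mature 3p sequences of 6 members (RefSeq, GRCm38.p6) are given with the seed, bases 2 to 8, in capitals, because several members share it.
mmu-miR-291a-3p: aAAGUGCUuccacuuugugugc
mmu-miR-294-3p: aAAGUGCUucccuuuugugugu
mmu-miR-295-3p: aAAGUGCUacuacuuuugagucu
mmu-miR-291b-3p: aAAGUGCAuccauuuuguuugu
mmu-miR-290a-3p: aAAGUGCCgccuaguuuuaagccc
mmu-miR-293-3p: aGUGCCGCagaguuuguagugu

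The first 3 of these carry the same seed, AAGUGCU, and miR-291b-3p and miR-290a-3p differ from it in the last base of the seed. In MEFs, peaks with no mESC peak on the record covered Mir21a (fold 40.6), Mir125b-1 (37.9), Mir22 (35.5), Mir199b (33.4), and Mir199a-2 with Mir214 (30.4). The last pair lay under a single peak of 13.5 kb at chr1:162214935-162228415, over the antisense transcript Dnm3os inside Dnm3. Mir125b-1 lay under a peak of 24.0 kb at chr9:41577570-41601571. Their mature sequences are given in the same way, since miR-199a-3p and miR-199b-3p come from separate loci.
mmu-miR-21a-5p: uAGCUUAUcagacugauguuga
mmu-miR-125b-5p: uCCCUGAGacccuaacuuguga
mmu-miR-22-3p: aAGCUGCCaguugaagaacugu
mmu-miR-199b-3p: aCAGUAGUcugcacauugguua
mmu-miR-199a-3p: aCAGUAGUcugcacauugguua
mmu-miR-214-3p: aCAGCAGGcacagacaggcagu

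The mESC peak nearest to Mir199a-2 was 340955 bp away and that nearest to Mir125b-1 was 183317 bp away. For Mir22, Mir21a and Mir199b it was 840, 3761 and 5690 bp away, so mESC Pol II was not distant from these loci. Of 2054 autosomal miRNA records, 25 lay under a peak in mESCs only (1.22%), and the miR-290 to miR-295 cluster made up 9 of them under 1 peak. MEF peaks alone covered 183 records (8.91%), of which 105 had no mESC peak within 5 kb. Apart from the stem cell cluster, the mESC-only records had folds of 5.86 or less. The miRNA loci were chosen after their values were seen.

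At protein-coding promoters 396 genes had Pol II in mESCs only (1.9%), 4557 in MEFs only (21.9%), 6940 in both (33.4%) and 8914 in neither. With the MEF list reduced to its 16925 strongest peaks, the number in the mESC list, 573 genes were found in mESCs only (2.75%) and 3924 in MEFs only (18.9%). Only the MEF list was shortened, so the mESC-only class could not lose a gene, and it gained 177 genes that had a peak in both full lists. The asymmetry toward MEFs was thus present with equal numbers of peaks, but equal numbers did not make the lists alike. Of the reduced MEF list 53.5% lay at promoters, against 39.3% of the mESC list. The lowest -log10 p was 13.8 in the reduced MEF list and 3.51 in the mESC list. Per the study's methods Pol II samples were scaled by their total of mapped reads, but how many reads went into each list is not given in the sources used here, and neither its part nor that of the enrichment of each library was tested.

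The weaker the promoter peak, the more often it stood alone. When the promoters of a library were ranked by fold and split into 5 parts of similar size, 71.4% of the weakest part of MEF promoters had no mESC peak (95% interval 69.5 to 73.2), against 13.9% of the strongest part (12.5 to 15.3). In mESCs 176 of 1467 promoters of the weakest part and 19 of 1448 of the strongest part (1.31%, 0.792 to 2.04) had no MEF peak. The strongest part of each library is named as such where gene groups are described within it. All intervals are exact Clopper-Pearson intervals and cover counting error only.

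**Figure D1:**
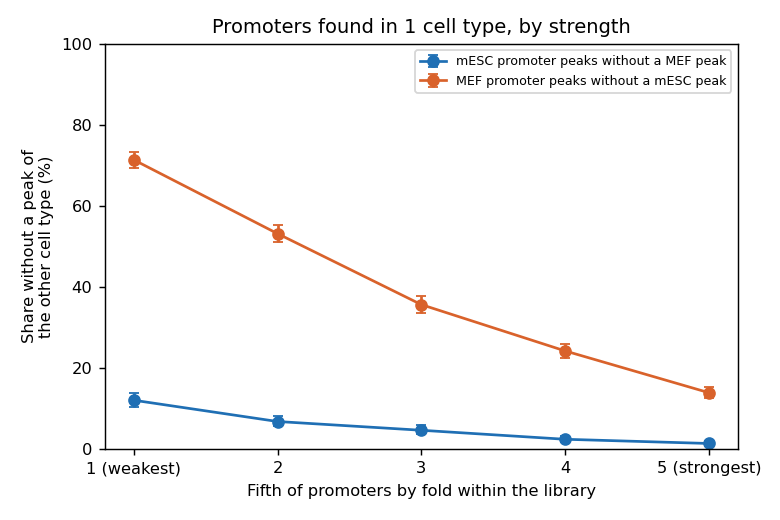
Share of promoters with a Pol II peak in 1 cell type that lacked a peak of the other (vertical axis, %) in 5 parts of the promoters by fold within the library (horizontal axis, weak to strong), with 95% counting intervals as bars. The share is 71.4% in the weakest and 13.9% in the strongest part of MEF promoters, and 1.31% in the strongest part of mESC promoters.

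The pluripotency network held many mESC-only promoters, beside 1.9% over all genes. Of 22 regulators, 10 had a promoter peak in mESCs only, 7 in both cell types, none in MEFs only and 5 in neither. The core factors Pou5f1, Sox2 and Nanog, which sustain the undifferentiated state, had folds of 5.01, 7.33 and 4.64 in mESCs, and no MEF peak at the promoter. The nearest MEF peak was 567945 bp from the TSS of Sox2, 10372 bp from that of Pou5f1 and 3704 bp from that of Nanog. Tfcp2l1, a factor of the naive state that depends on LIF, reached 12.4, the 97.7th percentile of mESC promoters. Gbx2 (5.85), Mycn (4.89), Sall4 (3.99), Prdm14 (3.81), Zfp42 (3.44) and Utf1 (3.24) completed the group. Within the mESC list the group ran from the percentile 14.1 for Utf1 to that of Tfcp2l1, with Pou5f1 at the 64.0th and Nanog at the 55.9th.

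Regulators with Pol II in both cell types included Klf2, Klf4, Klf5 and Myc, which act outside stem cells as well. Klf2 had a fold of 18.4 in mESCs (99.2nd percentile) and 23.8 in MEFs (90.1st percentile), and Klf4 7.05 and 26.8. Myc lay at the 68.9th percentile in mESCs and the 92.7th in MEFs. Rif1, a telomere and replication timing factor, ranked far higher in mESCs, at the 96.3rd percentile in mESCs and the 6.83rd in MEFs. Of the 5 regulators with no peak at the start of the gene record, Esrrb and Zscan10 had mESC peaks of 7.48 and 3.64 at the start of another transcript, while Nr5a2, Tcl1 and Tfap2c had none.

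Among 28 further genes of the stem cell state, 12 were found in mESCs only (42.9%, beside 1.9% over all genes), 2 in MEFs only (7.14%, beside 21.9%), 6 in both (21.4%, beside 33.4%) and 8 in neither. The mESC-only members included the Nodal co-receptor Tdgf1 (7.37), the ligands Nodal (5.73) and Lefty2 (5.15), the let-7 antagonist Lin28b (5.15), the germline and stem cell gene Tex19.1 (10.5), Dppa5a (6.81), Dppa2 (3.96) and the adhesion molecules Cdh1 (4.77) and Epcam (3.14). Both MEF-only members, the ERK antagonist Spry4 (13.8) and the de novo methyltransferase Dnmt3b (7.57), had no mESC peak nearer than 181880 bp and 38042 bp to the TSS. Mybl2, a cell cycle transcription factor, had peaks in both lists and lay at the 97.5th percentile in mESCs and the 25.2nd in MEFs. Of the 19 genes in the strongest part of the mESC promoters that lacked a MEF peak, 5 belonged to these 2 lists, namely Tfcp2l1, Sox2, Tex19.1, Dppa5a and Tdgf1.

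By fold, the mESC-only promoter that ranked highest was Gtsf1l (chr2:163087034-163087855, mm10, minus strand), a gametocyte-specific factor homologue, at 17.6. Tfcp2l1 (chr1:118627945-118685168) and Mreg (chr1:72159442-72212307), a melanosome transport gene, followed at 12.4 and 11.2. Tex19.1, the Polycomb subunit gene Cbx7 (9.57), the MHC class I-like gene H2-M5 (8.29), Tdgf1, Sox2 (chr3:34650405-34652461), Wdtc1 (7.01), Dppa5a and the TGF-beta family ligand Gdf3 (6.72) were also among the 12. All were chosen with no MEF peak within 5 kb of the TSS. When every annotated transcript start was used, 9 of the 12 remained specific to mESCs.

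The MEF-only side was led by the extracellular matrix. Of 42 fibroblast matrix and surface genes, 31 had Pol II in MEFs only, beside 21.9% over all genes, 8 in both, none in mESCs only and 3 in neither. Col3a1 (chr1:45311538-45349706, plus strand) had the highest fold of the MEF-only promoters, 49.2, and the nearest mESC peak was 483554 bp away. Col1a2 (chr6:4504814-4541544) had 43.3 and Fbn1, which encodes the microfibril protein fibrillin-1, 39.2. The thrombospondins Thbs2 and Thbs1 had 37.4 and 34.2, and the intermediate filament gene Vim had 34.2. Each promoter took the fold of the strongest peak that touched its window, wherever the summit lay. The peak of Fbn1 had its summit in the gene body, and that of Thbs1 had its summit past the gene end. Lower in the list came the receptors Pdgfrb (21.9) and Pdgfra (12.7), the glycoprotein Thy1 (13.4) and the proteoglycans Lum (9.25) and Dcn (8.66). In the strongest part of MEF promoters 16 of 23 genes of this list lacked an mESC peak, against 319 of 2301 promoters of all genes, 13.9%.

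Some matrix genes had Pol II in both cell types, and 7 of these 8 lay high in the MEF list, with Nt5e at percentile 8.81 the exception. The YAP-responsive genes Ccn1 and Ccn2 had folds of 40.9 and 34.3 in MEFs and lay at the 73.5th and 76.3rd percentile in mESCs. Fn1, the fibronectin gene, had a fold of 40.0 in MEFs and 4.73 in mESCs. Of the 3 members with no peak at the gene start, Sparc had a MEF peak of 21.5 at another transcript start. The mESCs had been grown on feeder cells at first, and the members with an mESC peak were these 8, with Col3a1, Col1a2, Pdgfra and Thy1 not among them. Col1a1 had an mESC peak 1535 bp from its TSS. A part of feeder cells in these 8 peaks was not tested.

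Other families of the matrix were split by member. Of 42 collagen genes 17 were found in MEFs only, 8 in both and 17 in neither. The fibrillar collagens Col1a1 (38.3) and Col5a2 (21.1) and the fibril-associated Col12a1 (24.4) were among the former, while the basement membrane pair Col4a1 and Col4a2, which share a promoter, had Pol II in both. With every transcript start Col1a1 had peaks in both lists. Of 19 ADAMTS proteases, which trim the matrix, 9 were found in MEFs only (47.4%), 3 in both and 1, Adamts8, in mESCs only, with Adamts1 (33.7) and Adamts6 (27.2) leading. Of the 5 ADAMTS-like genes, which are not proteases, 3 were found in MEFs only and 2 in neither, and the plot of gene lists counts them with the proteases. Laminins were split into 4 in MEFs only, 2 in both and 5 in neither, and the matrix metalloproteases into 4, 5 and 13. The MEF-only share of the metalloproteases, 18.2%, lay below the 21.9% of all genes, and that of the laminins was 36.4%. With equal numbers of peaks 3 metalloproteases were found in mESCs only and 2 in both, and 1 laminin in each of these classes.

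Integrins, the receptors for this matrix, had 13 of 30 members in MEFs only (43.3%, beside 21.9% over all genes), 2 in mESCs only (6.67%, beside 1.9%), 5 in both and 10 in neither. The MEF-only members included chains of fibronectin and collagen receptors, with Itga5 at 14.3, Itga1 at 10.2 and Itga11 at 9.33, and of laminin receptors, with Itga3 at 5.16 and Itga7 at 3.59. The mESC-only members were Itga6 (2.88) and Itgb4 (2.50), which also encode laminin receptor chains. With every transcript start Itga6 had peaks in both lists, the MEF one with a fold of 10.4, and 1 integrin remained in mESCs only. Itgb1 and Itgav, partners of many alpha and beta chains, had Pol II in both cell types (5.71 and 6.17 in mESCs, 25.4 and 29.6 in MEFs). Itgb3bp and Itgbl1, which the name pattern included among the 13, are not integrins.

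Contractile genes were most often found in MEFs only, 18 of 36 records, beside 21.9% over all genes. A further 15 were found in both (41.7%, beside 33.4%), none in mESCs only and 3 in neither. The counting interval of the share in both included the 33.4% of all genes. The smooth muscle isoforms Acta2 (31.6) and Tagln (23.0), the light chain gene Myl9 (21.6), non-muscle Myh9 (21.2) and the focal adhesion genes Zyx (33.4) and Ilk (30.5) had peaks in MEFs only. The widely used Actb (10.7 in mESCs, 27.3 in MEFs), Actg1 (7.60 and 41.3) and Vcl (5.45 and 21.4) had peaks in both.

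Among 38 mesenchymal transcription factors, 25 had Pol II in MEFs only (65.8%, beside 21.9% over all genes), 9 in both (23.7%, beside 33.4%), none in mESCs only and 4 in neither. Twist1 (26.8), Msx1 (23.8), Snai2 (21.1), Foxc1 (19.2) and Prrx1 (18.5), regulators of mesenchyme and limb or head patterning, were among the former. The immediate early genes Fos, Jun and Junb had peaks in both, but at the 48.6th, 2.17th and 52.2nd percentile in mESCs and at the 96.5th, 91.0th and 99.2nd in MEFs. Of the 4 with none, Runx1 and Nfib had peaks of both cell types at another transcript start. The further AP-1 genes Fosl1, Fosl2 and Fosb were found in MEFs only.

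The Hox clusters, which encode position along the body axis, were covered by Pol II peaks mainly in MEFs. Of 39 genes 27 had a promoter peak in MEFs only (69.2%, beside 21.9% over all genes), 3 in both, 1 in mESCs only (2.56%, beside 1.9%) and 8 in neither. MEF peaks covered 66.9% of the 105 kb of the Hoxa cluster (chr6:52155590-52260880), 34.9% of Hoxb, 21.9% of Hoxd and 12.3% of Hoxc, whereas mESC peaks covered 1.04%, 3.24%, 0.373% and 3.04%. The folds of MEF promoters were modest, with a median of 7.14 and a maximum of 16.1 at Hoxd13. The exceptions were few. Hoxa13 and Hoxb9 were among those with peaks in both cell types, and Hoxc13 (4.44) had one in mESCs only. Hoxb9 was stronger by rank in mESCs, at the 97.5th percentile against the 27.7th in MEFs. Overlapping and antisense transcripts in these clusters cannot be told apart in ChIP-seq data, which carry no strand.

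Families of transcription factors were divided by member, and their shares stand beside 1.9% in mESCs only, 21.9% in MEFs only and 33.4% in both over all genes. The Sox family had 4 of 18 members in mESCs only, Sox2, Sox21 (4.11), Sox1 (3.95) and Sox18 (3.68), 3 in MEFs only, including the cartilage factor Sox9 (16.0), and 6 in both. This was the highest mESC-only share, 22.2%, among 264 symbol roots with at least 10 autosomal genes, followed by Gdf (2 of 10) and Pou (3 of 15). The roots were chosen after their values were seen. The Klf family was shared, with 12 of 16 in both, 2 in MEFs only (12.5%) and 2 in neither. Of 41 Fox genes 15 were found in MEFs only (36.6%), 4 in mESCs only (9.76%), 5 in both and 17 in neither, and of 12 Tbx genes 4 in MEFs only (33.3%), 2 in both and 6 in neither. Of 385 genes named Zfp, 169 were found in MEFs only (43.9%), 145 in both (37.7%) and 3 in mESCs only (0.779%), which was 6 with equal numbers of peaks. These genes resemble each other in sequence.

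Signalling families were read against the 21.9% of all genes found in MEFs only. Semaphorins, guidance cues, had 11 of 20 members in MEFs only and 3 in both, and Wnt ligands 5 of 19 in MEFs only (26.3%), 1 in mESCs only and 1 in both. Of 35 Cxcl and Ccl chemokines 12 were found in MEFs only (34.3%), 1 in mESCs only and 1 in both, and of 7 Igf binding proteins 3 in MEFs only and 3 in both. By symbol root the MEF-only share was highest for Hoxa (81.8%), the integrin alpha root Itga (9 of 12), the zinc finger root Zkscan (72.7%) and the intraflagellar transport root Ift (71.4%). Annexins (Anxa) reached 63.6%. Of 67 protocadherins 17 were found in MEFs only (25.4%), 1 in both and 49 in neither, and with equal numbers of peaks the MEF-only count was 7. The Wnt and protocadherin shares thus lay near that of all genes.

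Housekeeping genes were described in the same way, beside 1.9% in mESCs only, 21.9% in MEFs only and 33.4% in both over all genes. None of 9 chaperonin genes was found in 1 cell type only, with 8 in both. Of 67 replication-dependent histone genes 60 had Pol II in both, 2 in mESCs only and none in MEFs only, and their median percentile was 99.0 in mESCs and 94.4 in MEFs. Histone genes are near-identical copies whose reads could be shared. Of 95 genes in the cytosolic ribosomal list 75 had Pol II in both and 7 in MEFs only, of which 4 were S6 kinase genes caught by the name pattern and Rps24, Rps10 and Rps14 encode ribosomal proteins. With every transcript start 4 were found in MEFs only.

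Further, 22 of 78 mitochondrial ribosomal genes and 17 of 49 proteasome genes were found in MEFs only (28.2% and 34.7%, beside 21.9% over all genes), with 54 and 26 in both (69.2% and 53.1%, beside 33.4%). The proteasome genes included Psmb8, Psmb9 and Psmb10, the inducible subunits of the immunoproteasome, all in MEFs only. For the proteasome list the MEF-only members were 39.5% of the promoters with a MEF peak and for the mitochondrial ribosomal list 28.9%, beside 39.6% for all genes. The corresponding shares were 79.5% for fibroblast matrix genes, 27 of 30 for Hox genes, 73.5% for mesenchymal factors and 8.54% for the cytosolic ribosomal list. Of the promoters with an mESC peak, 5.40% lacked a MEF peak over all genes, 58.8% among pluripotency regulators and 66.7% among the other stem cell genes.

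Markers of further lineages, which a culture from embryos could hold, differed by list, beside 1.9% in mESCs only and 21.9% in MEFs only over all genes, and a part of such cells was not tested. Epithelial markers had 3 of 14 in mESCs only, Cdh1, Epcam and Cldn4, and 11 in neither. Muscle markers had 11 of 12 in neither, with the lineage factors Myod1 and Myf5 among them, and Myog (3.29) in mESCs only. Neural markers had 3 of 13 in mESCs only, 2 in MEFs only, 2 in both and 6 in neither, and endothelial markers 2, 3, 1 and 6 of 12. The endothelial markers with a MEF peak were Erg (8.79), Flt1 (3.09), Kdr (2.61) and Esam (2.36), and Cdh5, Pecam1, Tek and Tie1 were among those with none. Blood markers had 5 of 11 in MEFs only, Klf1 (5.10), Spi1 (4.93), Tal1 (4.21), Vav1 (3.76) and Laptm5 (3.49), 2 in both and 4, Ptprc among them, in neither. The pair found in both was Fcer1g (3.63 in mESCs, 3.90 in MEFs) and Cd68 (18.5 and 19.9), the latter in the strongest part of the promoters of both libraries. With equal numbers of peaks 2 blood markers and 1 endothelial marker were found in MEFs only, and with every transcript start 7 and 2. Germline genes had 1 of 22 in MEFs only, 2 in both and 19 in neither. Keratins had none of 53 and olfactory receptors 4 of 1128, all in MEFs only and none with equal numbers of peaks. With every transcript start 2 keratins were found in MEFs only, and 6 olfactory receptors in MEFs only and 2 in mESCs only.

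**Figure D2:**
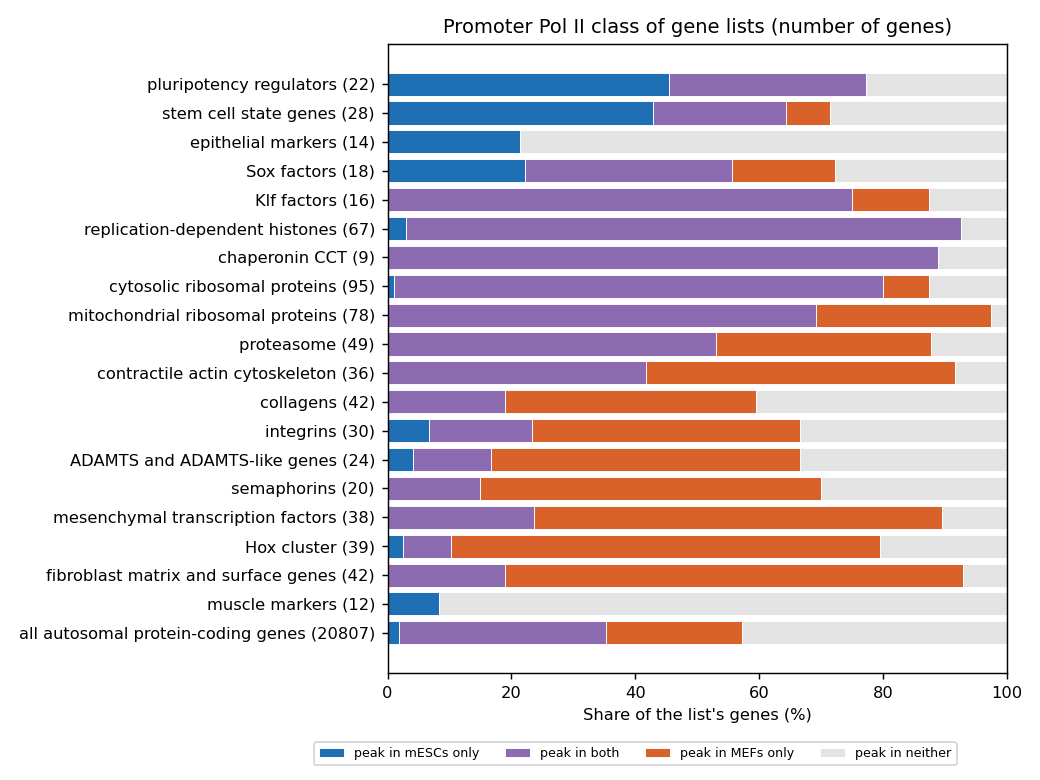
Share of the genes of each list (horizontal axis, %) with a promoter Pol II peak in mESCs only, in both cell types, in MEFs only or in neither, with the number of genes in brackets. The pluripotency list has 10 of 22 genes in mESCs only, and the fibroblast matrix list has 31 of 42 in MEFs only.

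At the 6940 promoters with peaks in both lists the folds followed each other loosely, with a Spearman coefficient of 0.39 across genes, which are not independent replicates. MEF peaks were wider in 95.8% of them, with a median of 1659 bp against 684.5 bp. Percentiles refer to promoter lists of unequal length, and the shared promoters had a median percentile of 51.5 in mESCs and 63.3 in MEFs, so a gap between the percentiles of a gene is not centred on 0.

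The promoters that ranked far higher in mESCs were Jam2, a junction adhesion gene (94.2nd percentile in mESCs, 0.191st in MEFs), Gng13, Mfsd2b, Rif1, Acp6, Lima1, Zic5 and Pkp2. Zic5 is a neural and stem cell zinc finger gene, and Pkp2 encodes a desmosome protein. With equal numbers of peaks the MEF peaks of Jam2, Gng13, Mfsd2b and Zic5 were no longer in the list. Those that ranked far higher in MEFs were Ahnak, a large scaffold gene (97.6th percentile in MEFs, 0.0954th in mESCs), Ugp2, Tmem39b, Ufl1, Rab35, Rnf6 and the pair Gm28042 and Jmjd7, which share 1 start region. Ugp2 makes UDP-glucose and Rab35 acts in membrane trafficking.

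**Figure D3:**
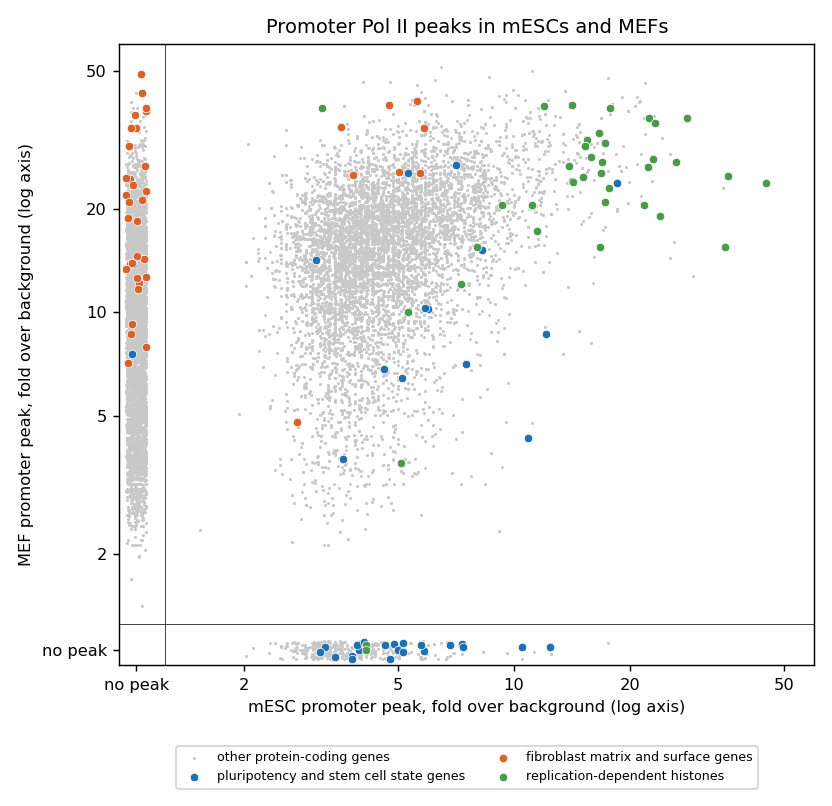
Fold over background of the strongest promoter Pol II peak in mESCs (horizontal axis) and in MEFs (vertical axis) for each autosomal protein-coding gene with a peak in at least 1 list, both on log axes with a strip for no peak. Fibroblast matrix genes (orange) gather in the strip without an mESC peak, up to Col3a1 at 49.2, pluripotency and stem cell genes (blue) in the strip without a MEF peak, and histone genes (green) at high fold in both.

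The location of the peaks differed between the lists. In mESCs 39.3% of peaks lay at promoters (95% interval 38.6 to 40.1), 33.5% in gene bodies and 27.1% between genes, whereas in MEFs 22.7% (22.4 to 23.1) lay at promoters, 22460 of 44890 peaks in gene bodies and 27.2% between genes. The order turned when the MEF list was reduced to 16925 peaks, of which 53.5% lay at promoters and 26.0% in gene bodies. The larger share of gene body peaks in MEFs was thus found in the full list and not among its strongest calls. MEF peaks covered 50.4 Mb and mESC peaks 12.4 Mb, a ratio of 4.08, which was 2.79 with equal numbers. The median width of promoter peaks was 1332 bp in MEFs and 639 bp in mESCs.

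Promoters were also the most shared class. In mESCs 93.3% of promoter peaks (92.7 to 93.9) overlapped a MEF peak by at least 1 bp, against 51.4% of gene body peaks and 48.0% of intergenic peaks. For the MEF peaks this was 57.5%, 9.52% and 14.2%. At equal list length, 90.7%, 37.9% and 34.5% of the mESC peaks were overlapped, and 62.9%, 28.9% and 30.5% of the MEF peaks. In both lists, at full and at equal length, promoter peaks were overlapped most often.

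**Figure D4:**
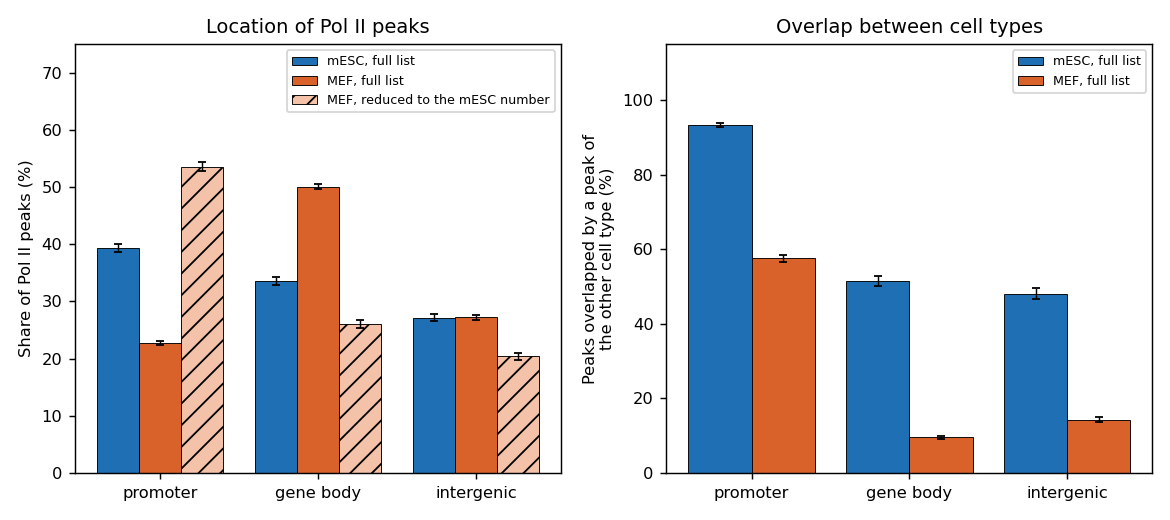
Left, share of Pol II peaks (vertical axis, %) at promoters, in gene bodies and between genes for the full lists and for the MEF list reduced to the number of mESC peaks, and right, share of the peaks of each full list that overlapped a peak of the other cell type (vertical axis, %), with 95% counting intervals. The MEF promoter share is 22.7% in the full list and 53.5% in the reduced one.

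Around the TSS of the 5980 genes of at least 5000 bp with Pol II in both lists, 81.8% of start sites were inside an mESC peak and 96.6% inside a MEF peak. At 1000 bp downstream the shares were 10.0% and 44.6%, and at 5000 bp 1.64% and 8.14%. A second zone appeared past the gene end. Over 2426 of these genes with no other gene in the 10 kb downstream, 1.81% of ends were inside an mESC peak, 6.80% at 1000 bp past the end and 1.11% at 10000 bp. In MEFs the corresponding shares were 9.23%, 24.3% and 4.45%, with the highest share, 26.5%, at 1700 bp. Both cell types thus had more Pol II peaks 1000 bp past the end than at the end itself, at shares that differed between lists of unequal length.

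**Figure D5:**
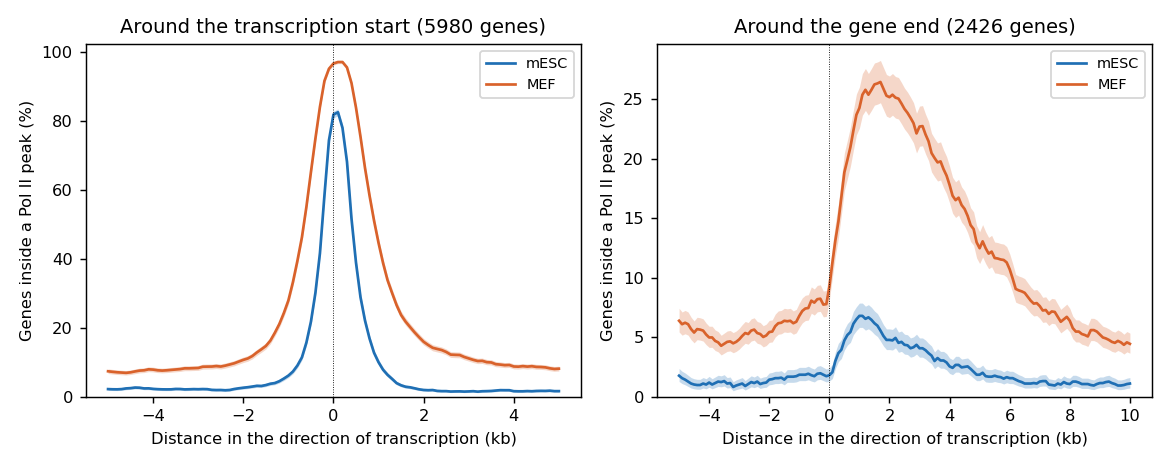
Share of genes inside a Pol II peak (vertical axis, %) by distance from the TSS (left) and from the gene end (right) in kb along the direction of transcription, for mESCs and MEFs, with 95% counting intervals as shading. The curves are highest close to the TSS and rise again past the gene end, where the highest share is 26.5% at 1700 bp in MEFs and 6.80% at 1000 bp in mESCs.

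Of 17031 genes of at least 5000 bp, 3847 had a peak in the body beyond 1000 bp from the TSS in mESCs and 7836 in MEFs. The body was occupied in mESCs only in 721 genes (4.23%), in MEFs only in 4710 (27.7%) and in both in 3126, of which 85.2% had the larger covered share in MEFs. MEF peaks covered the whole body of 62 genes and mESC peaks that of 1 gene, Rps28. The MEF genes with the longest fully covered bodies were the tropomyosin gene Tpm1, the macrophage growth factor Csf1, Rnd3, Pdlim7, Col1a1, Amotl2, Spaca6 and Thbs1. Several are matrix or actin genes, and mESC peaks covered 7.85% or less of each of their bodies.

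In mESCs the bodies covered most were those of Rps28, Tlcd1 (85.7%), Dbp (79.2%), Star (75.4%), Rab26 (74.9%), Trmt2a (71.3%), Doc2a (69.9%) and Rcor2 (68.1%). Rps28, Tlcd1, Star, Trmt2a and Rcor2, a co-repressor subunit gene, had promoter peaks in both cell types. MEF peaks also covered 52.2% or more of each of these bodies. Among the genes whose body was occupied in mESCs only, Notum, which encodes a Wnt deacylase, was covered over 45.0% and Tdgf1 over 28.2%, and Tmem191c had the largest share, 49.7%. These 3 were chosen after their values were seen.

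Between genes the strongest mESC peak without a MEF peak lay on the long non-coding RNA gene Lncenc1, a transcript known from naive stem cells, at chr13:97489023-97501939 (12.9 kb, fold 29.1). The next was at chr6:124475956-124482438, 13.2 kb upstream of C1rl, with 21.0 and no gene record under its summit. A peak of 17.6 at chr2:163083828-163089234 had its summit 876 bp downstream of Gtsf1l and is the same peak as that at its promoter. Peaks at chr12:19175404-19176806 (15.7), at chr13:21227604-21228950 near Trim27 (15.1) and at chr2:31238954-31239806 near Ncs1 (14.8) followed. In 5 of these 6 the summit lay in no annotated non-coding gene.

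Of the 6 strongest intergenic MEF peaks without an mESC peak, 3 lay shortly past the end of matrix genes. The summits were 1790 bp past Col1a2 (chr6:4541672-4545767, fold 47.0), 1445 bp past Lox, the gene of lysyl oxidase (32.1), and within the 22.9 kb peak that also covered Thbs1 and its promoter (34.2), where the nearest gene end was that of Fsip1. The others were the Mir125b-1 locus (37.9), a peak over Mir675 at chr7:142573347-142579105 (34.0), and chr2:18765817-18767886, 16.8 kb from Spag6 (30.3). Mir675 is processed from the imprinted non-coding transcript H19.

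Intergenic peaks were most often found within 10 kb downstream of a gene, 54.1% in mESCs (95% interval 52.6 to 55.5) and 62.3% in MEFs (61.4 to 63.1). A further 13.8% and 11.4% lay within 10 kb upstream. Those over 10 kb from any protein-coding gene and outside non-coding genes were 25.4% in mESCs and 18.8% in MEFs. Of these distal peaks 16.3% in mESCs and 7.40% in MEFs overlapped a peak of the other cell type, against 67.3% and 17.2% of the downstream peaks. Distal peaks were thus the intergenic class that was least shared in both lists.

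Sequence at the promoters differed by class. The ratio of observed to expected CpG in the 1000 bp around the TSS exceeded 0.6, the usual mark of a CpG island, in 86.2% of promoters with Pol II in both cell types, 57.9% of those in MEFs only, 43.9% of those in mESCs only and 11.4% of those in neither, with 47.2% over all genes. The TATA box TATAAA, searched on the gene's strand at 35 to 20 bases before the TSS, was found in 3.28% of mESC-only promoters (1.76 to 5.55), 0.922% of MEF-only promoters (0.665 to 1.24), 0.706% of shared promoters, 4.13% of those in neither and 2.27% of all promoters. CCAAT, searched on both strands in the 150 bases before the TSS, was found in 20.5% of mESC-only (16.6 to 24.8) and 28.2% of MEF-only promoters (26.9 to 29.5), with 26.8% over all promoters. In the histone list 53 of 67 promoters held it.

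The 120 bases before the RefSeq start are shown for 2 mESC-only and 2 MEF-only promoters that hold these letters (GRCm38.p6, gene strand, 5′ to 3′), with the TATA box in capitals. CCAAT, on either strand, is in capitals too. So is the GC box GGGCGG, also on either strand, whose share over all promoters was not counted. The RefSeq start lay 14 bp from that of the gene record for Pou5f1 and at the same base for the others. They were chosen after the sequences were seen.
Tfcp2l1, chr1:118627825-118627944, plus strand: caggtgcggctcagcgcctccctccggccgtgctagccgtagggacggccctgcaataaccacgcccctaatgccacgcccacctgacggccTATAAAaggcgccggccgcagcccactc
Pou5f1, chr17:35505912-35506031, plus strand: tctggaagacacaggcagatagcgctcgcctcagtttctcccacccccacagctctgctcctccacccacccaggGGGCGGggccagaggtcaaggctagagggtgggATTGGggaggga
Adamts1, chr16:85803114-85803233, minus strand: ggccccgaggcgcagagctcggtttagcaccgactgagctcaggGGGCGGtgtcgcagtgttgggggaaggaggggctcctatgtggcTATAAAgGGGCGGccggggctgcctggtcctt
Twist1, chr12:33957551-33957670, plus strand: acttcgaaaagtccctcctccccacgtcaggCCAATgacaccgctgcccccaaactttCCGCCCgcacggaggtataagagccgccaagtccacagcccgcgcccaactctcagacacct

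Outside promoters, 200 bp around the summits were searched for the octamer ATTTGCAT, which POU factors such as OCT4 bind, and for TGANTCA, the AP-1 site, on both strands. The octamer was found at 0.602% of 5148 mESC peaks without a MEF peak (0.410 to 0.854) and at 0.847% of 30799 MEF peaks without an mESC peak (0.748 to 0.956), and in 1.70% of all 200 bp tiles of the autosomes. It was thus less frequent at summits than in the tiles in both cell types. The AP-1 site was found at 5.36% of the mESC peaks (4.76 to 6.01), 8.01% of the MEF peaks (7.71 to 8.32) and 5.96% of the tiles. At equal list length these were 5.28% and 8.71%, and among the 500 strongest peaks of each set 4.80% and 2.40%. The octamer was found at 5 of the 500 strongest mESC peaks (0.325% to 2.32%) and 1 of the 500 strongest MEF peaks (0.00506% to 1.11%), the reverse of the order over the full sets. The median GC content was 54.0% at these mESC summits and 48.0% at these MEF summits, and its part in the shares was not tested.

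A MEF peak that held an AP-1 site is shown as an example, chosen after its values were seen, with the site in capitals between 30 flanking bases (mm10 positions, plus strand). It lay 1077 bp from Tmem44 in a peak of fold 19.8.
chr16:30510692-30510758: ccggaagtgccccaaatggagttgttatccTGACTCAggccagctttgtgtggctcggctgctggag

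Libraries that took no part in the classes were then set beside them. In the Atxn7l3-/- cells of the study, 39.4% of mESC-only promoters had a Pol II peak in mESCs (34.6 to 44.4) and 12.9% in MEFs (9.74 to 16.6), whereas 83.6% of MEF-only promoters had one in MEFs and 19.8% in mESCs. Over all genes 32.1% had one in the KO mESCs and 52.3% in the KO MEFs. The same class was found for 128 of 396 and 2951 of 4557 genes. All 12 leading mESC-only genes had a peak in the KO mESCs, and Tfcp2l1 and Mreg were among those with one in the KO MEFs as well. All 12 leading MEF-only genes had one in the KO MEFs, and Zyx had one in the KO mESCs. These libraries differ in genotype and list length (11632 and 31552 peaks), and are not replicates.

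Monoubiquitylated H2B (H2Bub1), a mark laid down along transcribed genes, was compared over the gene records of the wild-type cells. It covered part of 84.3% of mESC-only genes in mESCs (80.4 to 87.8) and 8.59% of them in MEFs (6.02 to 11.8). For MEF-only genes the shares were 63.4% in mESCs and 40.4% in MEFs, and over all genes 55.7% and 31.7%. The H2Bub1 lists held 40742 peaks in mESCs and 19578 in MEFs. Among the leading MEF-only genes Col3a1, Col1a2, Fbn1, Thbs2, Anxa1, Thbs1 and Adamts1 had H2Bub1 in MEFs and not in mESCs, while Sem1, Ctnnd1, Vim and Zyx had it in both. All leading mESC-only genes except Gtsf1l had it in mESCs and none in MEFs.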

How the data were processed

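Peak lists of 6 of the 16 samples were used, the wild-type Pol II lists of mESCs and MEFs for all classes, and the KO Pol II and wild-type H2Bub1 lists beside them. Per the submitters' processing notes the authors used bcl2fastq 2.17.1.14, Bowtie 1.0.0 and MACS2 2.1.1.20160309 with mm10. The calling threshold, the control and the treatment of reads with several matches are not given in the sources used here. The fold, a ratio of pileup to local background, was deposited on a linear scale, and the -log10 p and -log10 q are those the authors' peak caller gave. KO H2Bub1 lists, inputs and Ser2P libraries were not analysed here. The lowest deposited -log10 q was 1.33 in mESCs and 1.42 in MEFs. Pol II samples were scaled by total mapped reads and H2Bub1 samples by reads in intergenic regions, per the study's methods, which place this before peak calling. How many reads went into each list is not given in the sources used here, and a deeper library gives more and wider peaks. Summits were read from the deposited offset column.

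Positions were made 1-based and set against GENCODE M21 (GRCm38). A promoter took its strongest peak touching the window, a gene body ran beyond 1000 bp from the TSS, and overlap needed 1 bp. Sequences came from RefSeq (GRCm38.p6), with mature sequences for 219 of 338 miRNA records under a peak. Percentages carry exact Clopper-Pearson 95% intervals. Named genes were, per class, the 12 promoters with the highest fold and no other peak within 5000 bp, leaving out Gm and Rik symbols, the 8 shared promoters with the largest percentile gap in each direction, the 8 bodies covered most (ties by length) and the 6 strongest intergenic peaks, besides the members of 34 gene lists (2480 gene records, matched by symbol or name pattern). Some genes that the rule names are not reported here. Members and lists were chosen with earlier results of these data known. The peak overlap code was tested on simulated data. Alternatives tried were the MEF list reduced by -log10 p to equal length, peaks with -log10 q from 3 up, a narrow promoter (100 bp before to 300 bp after the TSS), every transcript start, genes 5000 bp apart, overlap of 50% and a 500 bp motif window. Python 3.11.15, numpy 2.4.6, pandas 2.3.3, scipy 1.17.1 and matplotlib 3.10.9 were used.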

Additional observations from a re-analysis of the deposited data

How the results depend on the processing

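Of 77 values recomputed under alternatives, 60 stayed within 1.5 times the count or within the interval of the share and 17 moved further. With a -log10 q of at least 3 the promoter share was 41.9% in mESCs and 24.1% in MEFs, and 69.5% of mESC peaks were overlapped by MEF peaks. With equal numbers of peaks the MEF promoter share was 53.5%, above that of mESCs, 57.8% of mESC peaks and 47.4% of MEF peaks were overlapped, the octamer share at MEF peaks was 0.669% and the AP-1 share 8.71%. With the promoter from 100 bp upstream to 300 bp downstream the promoter shares were 26.4% in mESCs and 16.6% in MEFs. With 50% of the peak covered the overlaps were 63.7% of mESC peaks and 9.55% of MEF peaks. Among 9757 genes at least 5000 bp from another, 18.9% had Pol II in MEFs only. In 500 bp windows the octamer was found at 2.02% of mESC and 2.36% of MEF peaks, and the AP-1 site at 12.7% and 18.7%. The causes of these shifts were not tested, apart from the wider window or shorter list itself. No paired analysis was possible because the result comes from no test and each cell type has 1 library. For the same reason no replicate could be left out. The number of reads behind each list, not known here, limits every count of peaks found in 1 cell type only, since a region without a call can still hold Pol II.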
